A study of Mus musculus with 4 samples.

Results

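The genes described here are 9 members of the machinery that moves salt and water across the lung epithelium, out of 23990 genes listed in 4 RNA-seq libraries. They were chosen by symbol and comprise the epithelial sodium channel subunits Scnn1a, Scnn1b and Scnn1g, the water channels Aqp1, Aqp3, Aqp4 and Aqp5, the sodium pump subunit Atp1b1 and the chloride channel Cftr. All 9 were found, each as a single entry, and all 9 passed the filter on low values. The libraries came from alveolar type 1 (AT1) cells, the thin flat cells of the gas-exchange surface, sorted from the lung edge of littermate mice of mixed B6 and 129 background at postnatal day 3 or 4. The Sox2-labelled libraries (n = 2) have the genotype label Scnn1a-Cre; Rosa[Sox2/+], a design in which Cre recombinase switches on a Sox2 transgene at the Rosa locus. The control-labelled libraries (n = 2) have the genotype label Scnn1a-Cre; Rosa[mTmG/+], a Cre-dependent membrane reporter at the same locus. By their labels all 4 libraries carry the Cre named after Scnn1a, which is one of the 9 genes. Nothing in the labels ties the replicates of a label to separate mice, so p-values here measure the spread between replicates, which may be technical. The comparison asks what Sox2, a transcription factor of the airway epithelium, does to AT1 cells.

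The lung is filled with fluid before birth and has to clear it at birth and keep its air spaces nearly dry afterwards. Sodium enters the epithelial cell through the epithelial sodium channel (ENaC), which is built from an alpha, a beta and a gamma subunit, and leaves through the sodium pump on the other side of the cell, while water follows through or between cells. Aquaporins are the membrane pores that let water pass quickly, and Cftr carries chloride.

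Sox2 ran against the labels. It stood at 1.41 and 1.99 FPKM in the Sox2-labelled libraries and at 302 and 477 FPKM in the control-labelled libraries, where FPKM counts fragments per transcript length and sequencing depth. Every direction below follows the labels as deposited. Whether the labels of the groups were exchanged was not tested, and if they were, every higher and lower, fold and order of groups below would turn round. Markers of AT1 cells were present in all 4 libraries, and the receptor Ager stood at 3260 and 3737 FPKM in the Sox2-labelled libraries and at 496 and 157 FPKM in control-labelled ones. Sftpc, the surfactant gene of alveolar type 2 (AT2) cells, was above Ager in every library. Small RNA genes took 14.0% and 5.76% of all FPKM in the Sox2-labelled libraries and 19.3% and 50.9% in control-labelled ones. Of the 12040 genes that averaged 1 FPKM or more, limma (on log2 of FPKM + 1) called 506 upward and 976 downward for the Sox2 label, and 34.1% of calls were thus upward. That share was 58.4% after median-of-ratios rescaling, 54.2% after quantile normalization and 53.2% after rescaling without small RNA genes. Across these genes the median log2 difference was -0.29, or 0.00, -0.04 and -0.05 under these rescalings.

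Of the 9 genes, 5 rose in the Sox2-labelled libraries, namely Scnn1a, Scnn1b, Scnn1g, Aqp1 and Aqp5, none fell and 4 did not pass (limma adjusted p under 0.05). For comparison, 4.20% of all tested genes were called higher and 8.11% lower, 12.3% in all. At an unadjusted p under 0.05, 6 of the 9 were higher and 0 lower. The values of the groups did not overlap for 8 of the 9 genes, which held for 58.1% of all tested genes, 15.7% upward and 42.5% downward. The median log2 difference of the 9 was 1.72, and 8 of the 9 differences were above 0. With no filter on low values none of the 9 passed, where limma called 0 genes higher and 3 lower in all, 3869 genes had an unadjusted p under 0.05, and the 5 genes had adjusted p of 0.0788 to 0.0847.

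**Figure D1:**
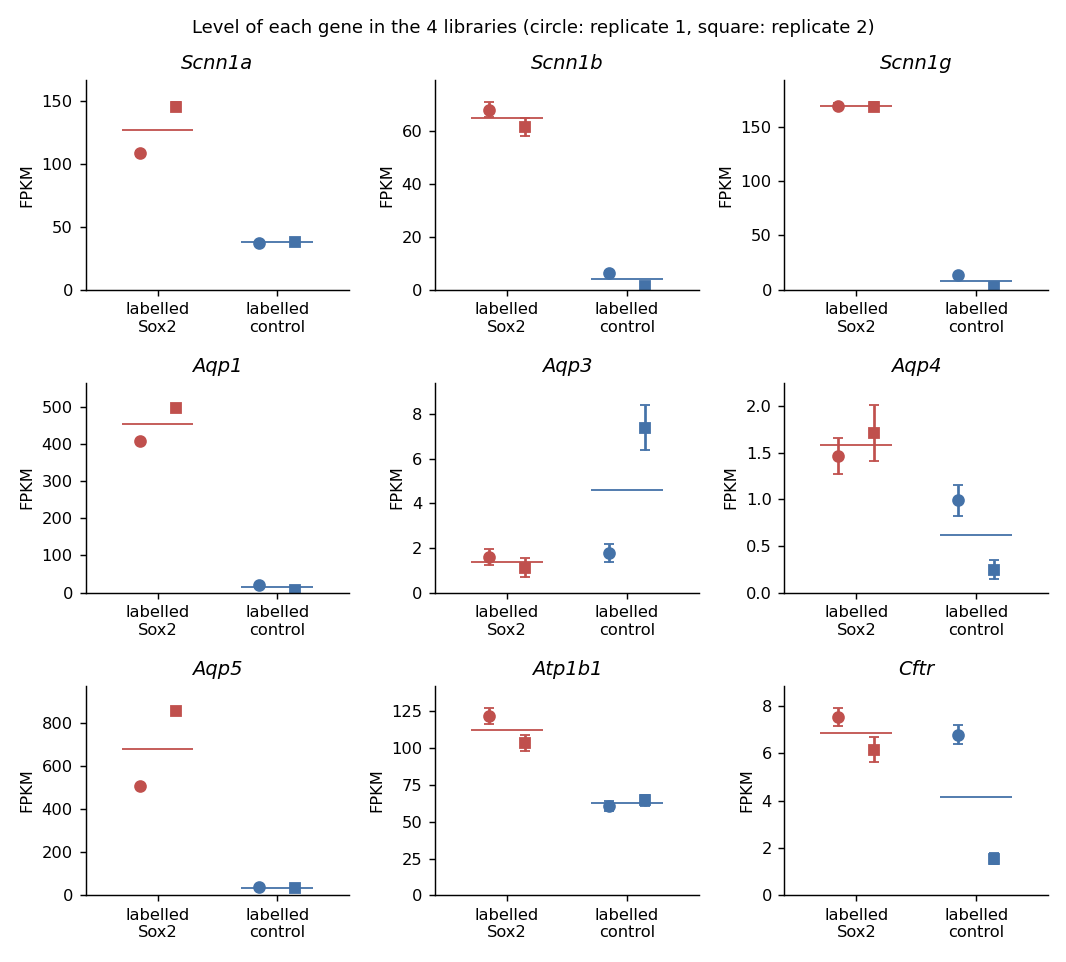
FPKM of each gene in each library, with the Sox2-labelled libraries on the left (red) and control-labelled ones on the right (blue). Bars on the points are the authors' lower and upper bounds and lines are group means, and Scnn1a, Scnn1b, Scnn1g, Aqp1 and Aqp5 lie well apart between the labels while the values of Cftr overlap.

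The promoter sequences of 4 of the genes that rose are given because these genes had the 4 largest upward differences of the 9. Each is the stretch from 250 bases before to 50 bases after the RefSeq start (build GRCm38.p6), 5′ to 3′ on the strand of the gene. Of the 9 genes, 7 had an entry and Scnn1a and Aqp4 had none. Capitals mark matches, on either strand, to the SOX core ACAAAG or the NKX2 core CAAGTG. The sequences are those of Scnn1b at chr7:121864788-121865087 (plus strand), Scnn1g at chr7:121734229-121734528 (plus strand), Aqp1 at chr6:55336049-55336348 (plus strand) and Aqp5 at chr15:99590778-99591077 (plus strand).
Scnn1b: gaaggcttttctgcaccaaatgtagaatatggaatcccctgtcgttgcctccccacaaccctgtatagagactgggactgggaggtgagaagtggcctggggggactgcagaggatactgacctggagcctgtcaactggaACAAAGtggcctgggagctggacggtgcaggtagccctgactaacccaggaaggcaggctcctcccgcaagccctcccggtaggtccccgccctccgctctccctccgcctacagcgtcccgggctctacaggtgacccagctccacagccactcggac
Scnn1g: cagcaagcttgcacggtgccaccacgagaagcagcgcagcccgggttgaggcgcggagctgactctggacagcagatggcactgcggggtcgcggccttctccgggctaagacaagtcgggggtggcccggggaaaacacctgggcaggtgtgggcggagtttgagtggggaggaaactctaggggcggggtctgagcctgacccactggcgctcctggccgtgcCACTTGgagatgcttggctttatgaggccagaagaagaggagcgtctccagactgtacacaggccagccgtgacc
Aqp1: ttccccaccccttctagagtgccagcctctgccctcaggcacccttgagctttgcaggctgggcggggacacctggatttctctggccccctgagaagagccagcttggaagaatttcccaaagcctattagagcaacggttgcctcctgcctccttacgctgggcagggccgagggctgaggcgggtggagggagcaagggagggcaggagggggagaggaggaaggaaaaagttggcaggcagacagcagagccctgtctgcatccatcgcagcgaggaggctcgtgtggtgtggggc
Aqp5: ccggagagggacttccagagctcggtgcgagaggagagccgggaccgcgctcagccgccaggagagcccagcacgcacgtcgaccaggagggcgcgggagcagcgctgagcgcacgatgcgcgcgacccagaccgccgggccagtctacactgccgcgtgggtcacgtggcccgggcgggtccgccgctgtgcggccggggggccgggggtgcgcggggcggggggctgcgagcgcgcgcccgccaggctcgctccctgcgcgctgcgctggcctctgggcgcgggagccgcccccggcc

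The promoter of Scnn1b held the letters ACAAAG from 109 to 104 bases before the start, a match to the core that SOX factors recognise. That of Scnn1g held CACTTG from 25 to 20 bases before the start, which is CAAGTG on the other strand, the core of NKX2 factors such as the lung regulator Nkx2-1. Among 32851 mouse promoters of the same length, 18.7% held the SOX core and 13.6% the NKX2 core on either strand. Atp1b1, which did not pass, held a SOX core as well, at 144 to 139 bases before its start. None of the 7 promoters held the TEAD core GGAATG, found in 14.7% of all promoters, or the AP-1 site TGANTCA, found in 7.81%. Base composition set them apart from each other. The Aqp5 promoter was 79.7% G and C with 46 CG pairs, against 62.7% and 8 for Aqp1, 61.7% and 10 for Scnn1b, 64.7% and 18 for Scnn1g, and medians of 52.7% and 7 over all promoters.

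The ENaC subunits rose unequally. Scnn1a, the alpha subunit that the channel cannot do without, stood at 108 and 146 FPKM in the Sox2-labelled libraries and at 36.9 and 38.2 FPKM in the control-labelled libraries. The groups lay apart, with close values within the control label. Its means were 127 ± 26.3 and 37.6 ± 0.931 FPKM (SD, n = 2 each), 3.38-fold, and the log2 difference was 1.72 (SE 0.31, limma adjusted p = 0.00651). Without Sox2-labelled replicate 2 the log2 difference was 1.50 and Scnn1a missed the threshold.

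Scnn1b, the beta subunit, stood at 67.9 and 61.4 FPKM in the Sox2-labelled libraries and at 6.37 and 1.40 FPKM in the control-labelled libraries. Scnn1g, the gamma subunit, stood at 170 and 169 FPKM in the Sox2-labelled libraries and at 13.7 and 2.18 FPKM in the control-labelled libraries. Both were steady within the Sox2 label and differed several-fold within the control label, where replicate 2 was the lower. The beta subunit averaged 64.6 ± 4.60 against 3.89 ± 3.51 FPKM (SD, n = 2 each), 16.6-fold, and the log2 difference was 3.96 (SE 0.48, limma adjusted p = 8.49e-04). The gamma subunit averaged 169 ± 0.472 against 7.92 ± 8.12 FPKM (SD, n = 2 each), 21.4-fold, and the log2 difference was 4.64 (SE 0.56, limma adjusted p = 8.74e-04). These folds moved with the control-labelled library left out. They were 46.0 and 77.8 without control-labelled replicate 1, and 10.2 and 12.4 without control-labelled replicate 2. With any 1 library left out the log2 differences stayed at 3.15 or more for Scnn1b and 3.54 or more for Scnn1g. With a control-labelled library left out, the fit no longer holds the spread between control-labelled replicates, so only these sizes are given.

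The make-up of ENaC transcripts differed between the labels. FPKM is scaled by transcript length, so levels of different genes can be set side by side. In the Sox2-labelled libraries, Scnn1a held 31.3% and 38.7% of the summed ENaC FPKM, Scnn1b 19.6% and 16.3% and Scnn1g 49.1% and 45.0%. In the control-labelled libraries, Scnn1a held 64.8% and 91.4%, Scnn1b 11.2% and 3.36% and Scnn1g 23.99% and 5.20%. The gamma subunit was thus the most abundant ENaC transcript in both Sox2-labelled libraries and the alpha subunit in both labelled control. The gamma-to-beta ratio moved less, at 2.50 and 2.75 in the Sox2-labelled libraries and 2.15 and 1.55 in control-labelled ones. The gamma-to-alpha ratio was 1.57 and 1.16 in the Sox2-labelled libraries and 0.370 and 0.0569 in control-labelled ones. With 2 libraries against 2, an exact permutation test of a ratio cannot give a p below 0.333, so these ratios are given as values.

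Scnn1g and Scnn1b are neighbours on chromosome 7 (build mm10, 121734507 to 121768477 and 121865038 to 121918728), with the same orientation and 96.6 kb between them, and the tables list no gene in that gap. The genes on either side did not pass. Usp31 had a log2 difference of 0.25 (limma adjusted p = 0.721) and Cog7 of 0.17 (limma adjusted p = 0.827). Scnn1a lies on chromosome 6 (125321340 to 125344942), 7.47 kb from Ltbr and 4.78 kb from Tnfrsf1a, receptors of the tumour necrosis factor family that had log2 differences of -0.04 and 0.00 (limma adjusted p = 0.947 and 0.994). The tables give 1 value per gene and do not separate promoters.

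**Figure D2:**
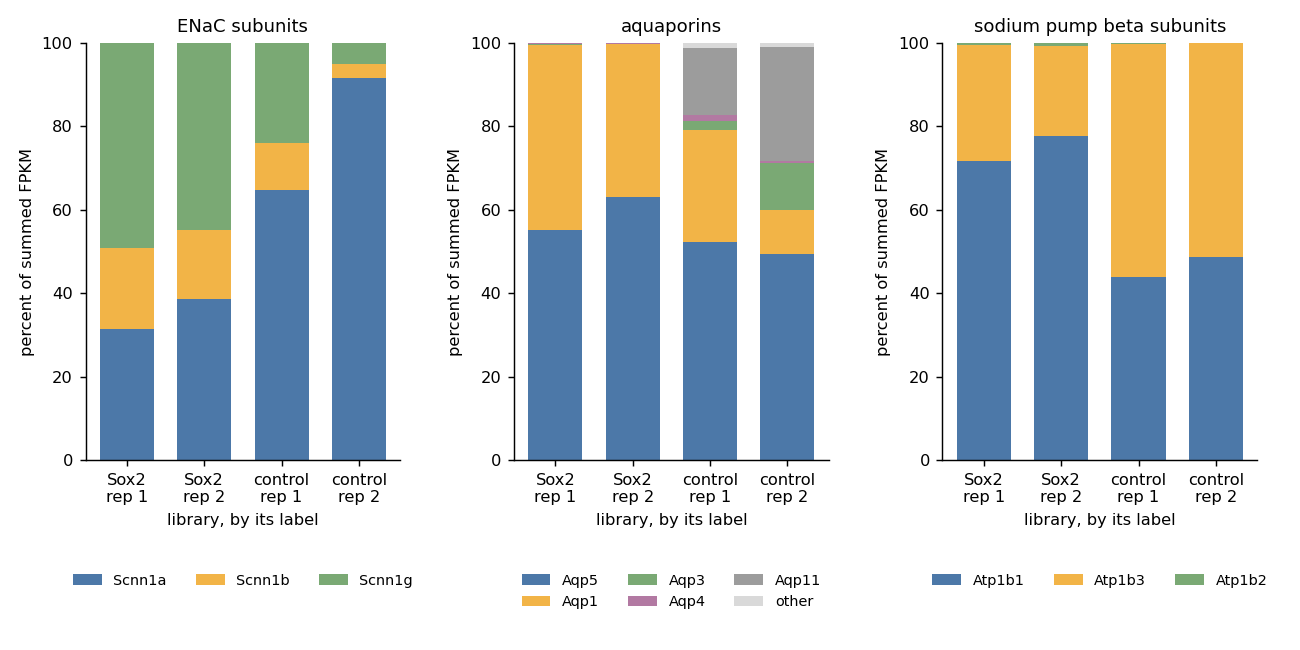
Share of the summed FPKM held by each ENaC subunit, aquaporin and sodium pump beta subunit, with the Sox2-labelled libraries to the left of control-labelled ones. Scnn1g led in the Sox2-labelled libraries and Scnn1a in control-labelled ones, Aqp11 reached 16.1% and 27.3% of aquaporin FPKM in control-labelled libraries, and Atp1b3 exceeded Atp1b1 there.

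Among the water channels, Aqp5 and Aqp1 rose. Aqp5, the pore of the outer face of AT1 cells, stood at 506 and 856 FPKM in the Sox2-labelled libraries and at 40.5 and 32.6 FPKM in the control-labelled libraries. It ranked 93rd and 21st among the tested genes by FPKM in the Sox2-labelled libraries and 1646th and 1766th in control-labelled ones. Its means were 681 ± 248 and 36.5 ± 5.54 FPKM (SD, n = 2 each), 18.6-fold, and the log2 difference was 4.14 (SE 0.34, limma adjusted p = 1.82e-04). The fold was 13.8 without Sox2-labelled replicate 2 and 23.4 without Sox2-labelled replicate 1.

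Aqp1, a water channel best known from blood vessels and red blood cells, stood at 407 and 497 FPKM in the Sox2-labelled libraries and at 20.6 and 6.93 FPKM in the control-labelled libraries. The values lay far apart, and control replicate 2 was again the lowest. The means were 452 ± 63.5 and 13.8 ± 9.66 FPKM (SD, n = 2 each), 32.8-fold, and the log2 difference was 5.11 (SE 0.43, limma adjusted p = 1.96e-04), the 9th highest of all tested genes. Without control-labelled replicate 1 the fold was 65.2 and without control-labelled replicate 2 it was 21.9. The log2 difference stayed at 4.38 or more with any 1 library left out.

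Because Aqp1 belongs to other cells too, their markers are given beside it. The 10 endothelial markers summed to 145 and 68.5 FPKM in the Sox2-labelled libraries and to 48.3 and 21.3 FPKM in control-labelled ones, 3.06-fold, and 2 of the 10 passed, both higher, while 8 were higher at an unadjusted p under 0.05. The fold of the sum was 1.97 without Sox2-labelled replicate 1 and 5.00 without control-labelled replicate 1. Pecam1 stood at 19.3 and 7.50 FPKM in the Sox2-labelled libraries and at 6.41 and 1.42 FPKM in control-labelled ones, and Cdh5 at 31.7 and 14.5 against 9.54 and 3.29 FPKM. Within the Sox2 label the endothelial sum was lower in replicate 2 while Aqp1 was higher there, and within the control label both were lower in replicate 2. The 9 red blood cell genes summed to 202 and 928 FPKM in the Sox2-labelled libraries and to 56.3 and 257 FPKM in control-labelled ones, 3.61-fold. Of 5 tested, 1 passed as higher and 0 as lower, while 2 were higher at an unadjusted p under 0.05. The fold of the sum was 1.29 without Sox2-labelled replicate 2 and 10.0 without control-labelled replicate 2. The red cell genes Klf1, Slc4a1 and Rhag were too low to be tested and did not exceed 0.266 FPKM in any library. Alas2, the heme enzyme of red cell precursors, stood at 0.978 and 4.33 FPKM in the Sox2-labelled libraries and at 0.262 and 1.08 FPKM in control-labelled ones. The part of either cell type in the Aqp1 difference was not tested, and in bulk libraries fewer cells of a type and less RNA per cell cannot be told apart.

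Aqp3 and Aqp4 stayed low and did not pass. Aqp3, a glycerol-carrying aquaporin of airway basal cells, stood at 1.58 and 1.11 FPKM in the Sox2-labelled libraries and at 1.77 and 7.39 FPKM in the control-labelled libraries. The groups barely missed each other and control replicate 2 stood alone. The log2 difference was -1.05 (SE 0.52, limma adjusted p = 0.204). The difference was -1.85 without control-labelled replicate 1 and -0.25 without control-labelled replicate 2. Of the 7 basal cell markers 4 were also highest in control-labelled replicate 2. So were 4 of 6 goblet cell markers and 4 of 8 proteases and inhibitors that act on ENaC. The basal cell markers Krt14, Krt15 and Ngfr were highest in Sox2-labelled replicate 1. The 7 basal cell markers summed to 4.16 and 3.15 FPKM in the Sox2-labelled libraries and to 60.3 and 213 FPKM in control-labelled ones. Dapl1 and Itgb4 were the largest, with Dapl1 at 41.6 and 150 FPKM in control-labelled libraries. Krt5 and Krt14 did not exceed 0.686 FPKM. Of 4 tested, 3 passed as lower, Trp63 among them, and 0 as higher. Trp63 stood at 0.0605 and 0.0293 FPKM in the Sox2-labelled libraries. In control-labelled ones it stood at 2.38 and 14.4 FPKM (log2 difference -2.79, limma adjusted p = 0.0145). It missed the threshold after median-of-ratios rescaling and quantile normalization, and its difference was -1.69 without control-labelled replicate 2. The part of the basal cell markers in Aqp3 was not tested.

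Aqp4, a water channel of airway cells and of the brain, stood at 1.47 and 1.71 FPKM in the Sox2-labelled libraries and at 0.989 and 0.245 FPKM in the control-labelled libraries. The groups did not overlap, and the log2 difference was 0.72 (SE 0.40, limma adjusted p = 0.261). At such levels the deposited bounds lay 13.1% to 41.9% of the value away from it, against 1.07% to 10.9% for Aqp1.

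The shares of the aquaporins differed between the labels. Aqp5 and Aqp1 together made up nearly all aquaporin FPKM in the Sox2-labelled libraries, at 55.1% and 63.1% for Aqp5 and 44.4% and 36.6% for Aqp1. In the control-labelled libraries Aqp5 held 52.4% and 49.5% and Aqp1 26.7% and 10.5%. The rest there was largely Aqp11, an aquaporin of membranes inside the cell, with 16.1% and 27.3%, against 0.0801% and 0.0336% in the Sox2-labelled libraries. Of the 8 other mouse aquaporins listed, Aqp11 was the only 1 with enough signal to be tested, and it fell to 0.735 and 0.456 FPKM in the Sox2-labelled libraries, against 12.4 and 17.98 FPKM in the control-labelled libraries. That is 25.5-fold less (log2 difference -3.33, SE 0.40, limma adjusted p = 8.40e-04). The log2 difference was -3.08 or lower with any 1 library left out. All aquaporin FPKM summed to 917 and 1356 in the Sox2-labelled libraries and to 77.2 and 65.9 in control-labelled ones.

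Aqp5 lies on chromosome 15 (99591028 to 99594829) between Aqp2, 6.48 kb to its left, and Aqp6, 6.57 kb to its right, kidney water channels of the same family. Neither of these exceeded 0.121 FPKM in any library, so Aqp5 was the only member of this cluster above 1 FPKM. Aqp3 on chromosome 4 has Aqp7 as a neighbour at 44.6 kb, which did not exceed 0.402 FPKM.

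**Figure D3:**
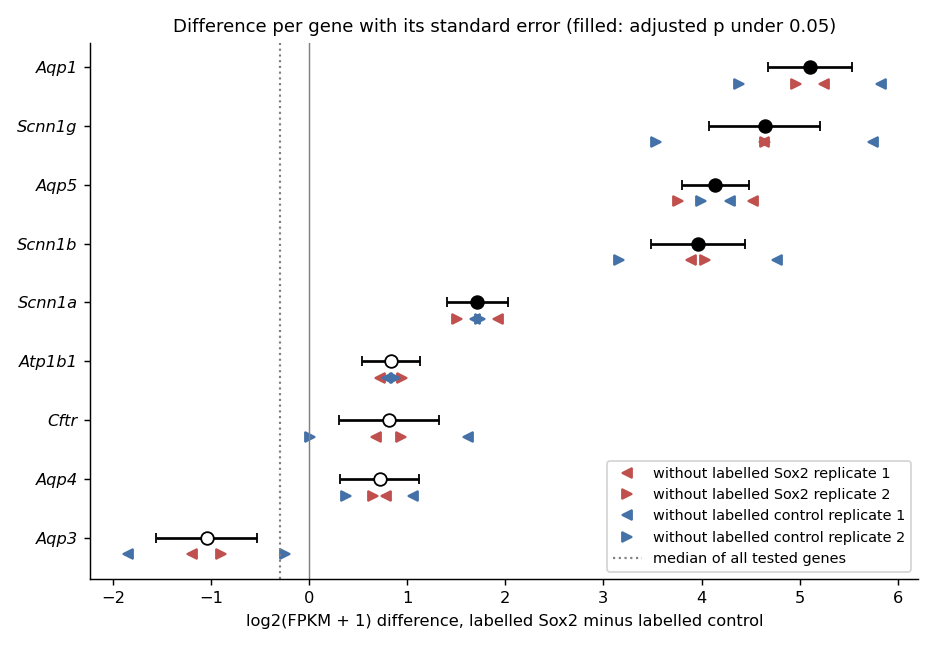
Difference in log2(FPKM + 1), labelled Sox2 minus labelled control, of each gene with its standard error (black, filled where the adjusted p is under 0.05), and the same difference with 1 library left out (triangles). Aqp1, Scnn1g, Aqp5 and Scnn1b stay above 3 with any library left out, and Cftr moves between 0.01 and 1.62.

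Atp1b1, the beta subunit that carries the sodium pump to the membrane, stood at 122 and 104 FPKM in the Sox2-labelled libraries and at 60.7 and 64.4 FPKM in the control-labelled libraries. The groups lay apart with little spread within either. The means were 113 ± 12.7 and 62.5 ± 2.66 FPKM (SD, n = 2 each), 1.80-fold, and the log2 difference of 0.83 (SE 0.30) did not pass (limma adjusted p = 0.0913). It passed as higher under all 3 rescalings that move the median of all genes close to 0 (limma adjusted p = 0.0346, 0.0261 and 0.0219, in a range of 0.0219 to 0.290 over all alternatives). Its entry on chromosome 1 (164437099 to 164458355) overlaps the end of Nme7, a gene at 2.11 to 5.62 FPKM, and the strand setting of the authors' counting is not given in the sources used here.

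Other genes of the pump were lower or did not pass. Of 15 further sodium pump and FXYD genes, 7 were tested, of which 3 were lower, 0 were higher and 4 did not pass (median log2 difference -0.95, or -0.60, -0.62 and -0.66 under the 3 rescalings). The number called lower was 1, 1 and 2 under these rescalings. At an unadjusted p under 0.05, 5 were lower and 0 higher, and with 1 library left out 1 to 3 were called lower and 0 to 1 higher. Atp1b3, the other beta subunit with signal, named after its values were seen, stood at 47.1 and 28.9 FPKM in the Sox2-labelled libraries and at 77.2 and 67.4 FPKM in control-labelled ones (log2 difference -0.95, limma adjusted p = 0.0871). The 3 beta subunits summed to 170 and 133 FPKM in the Sox2-labelled libraries and to 139 and 132 FPKM in control-labelled ones. Atp1b1 held 71.6% and 77.6% of that sum in the Sox2-labelled libraries and 43.8% and 48.8% in control-labelled ones, so the totals overlapped between the labels while the shares did not.

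The 3 that fell were FXYD regulators of the pump and a proton pump. Fxyd6 fell to 0.741 and 0.362 FPKM in the Sox2-labelled libraries, against 18.7 and 38.0 FPKM in control-labelled ones (log2 difference -4.17, SE 0.43, limma adjusted p = 4.62e-04). Its log2 difference was -3.68 or lower with any 1 library left out. Fxyd3 fell to 46.2 and 43.9 FPKM in the Sox2-labelled libraries, against 88.6 and 423 FPKM in control-labelled ones (log2 difference -2.08, limma adjusted p = 0.0365). Control-labelled replicate 2 stood alone, and without it the difference was -0.96 and missed the threshold. With all libraries kept, Fxyd3 missed it under the 3 rescalings, the 2 variance models, no filter and a filter at a mean of 5 FPKM. Atp12a, a proton pump of the airway surface, stood at 0.126 and 0.0343 FPKM in the Sox2-labelled libraries and at 8.26 and 1.44 FPKM in control-labelled ones (log2 difference -2.14, limma adjusted p = 0.0316). Atp12a missed the threshold after median-of-ratios rescaling and quantile normalization, and without Sox2-labelled replicate 1 or 2. Its difference was -1.18 without control-labelled replicate 1.

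Cftr stood at 7.53 and 6.15 FPKM in the Sox2-labelled libraries and at 6.77 and 1.54 FPKM in the control-labelled libraries. The groups overlapped, since control replicate 1 lay between the Sox2-labelled libraries. The log2 difference was 0.81 (SE 0.51, limma adjusted p = 0.321). It was 1.62 without control-labelled replicate 1 and 0.01 without control-labelled replicate 2. Of 24 other chloride, bicarbonate and sodium transporters, 16 were tested, of which 3 were higher in the Sox2-labelled libraries, 0 were lower and 13 did not pass (median log2 difference -0.14, which turns to 0.19, 0.14 and 0.14 under the 3 rescalings). At an unadjusted p under 0.05 the counts were 3 higher and 2 lower.

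Ano1, a calcium-gated chloride channel, rose to 108 and 119 FPKM in the Sox2-labelled libraries, against 60.2 and 16.3 FPKM in control-labelled ones (log2 difference 1.81, SE 0.49, limma adjusted p = 0.0367). Slc26a9, a chloride carrier of the airway, stood at 14.2 and 8.50 FPKM in the Sox2-labelled libraries and at 4.02 and 0.649 FPKM in control-labelled ones (log2 difference 2.06, limma adjusted p = 0.0298). Slc9a3r2, a scaffold that binds Cftr and sodium-proton exchangers, stood at 47.2 and 33.5 FPKM in the Sox2-labelled libraries and at 13.0 and 7.87 FPKM in control-labelled ones (log2 difference 1.87, limma adjusted p = 0.00887). None of these 3 calls held without Sox2-labelled replicate 1 (limma adjusted p = 0.111, 0.181 and 0.0881) or without Sox2-labelled replicate 2 (0.223, 0.131 and 0.0667). Without control-labelled replicate 2, Ano1 had a log2 difference of 0.90 and Slc26a9 of 1.26 and both missed the threshold, while without control-labelled replicate 1 they had 2.73 and 2.87. Their adjusted p ranged from 1.94e-09 to 0.223 for Ano1, 1.27e-05 to 0.181 for Slc26a9 and 1.44e-05 to 0.0930 for Slc9a3r2 over all alternatives.

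Hormone receptors, kinases and ubiquitin enzymes set how much ENaC reaches and stays at the cell surface. Of 16 such genes 14 were tested and 0 passed with all libraries (median log2 difference 0.43), while at an unadjusted p under 0.05 limma gave 2 higher, the ubiquitin ligase Nedd4l and the kinase Wnk1, and 0 lower. Nedd4, a ubiquitin ligase and the most abundant of them, stood at 164 and 103 FPKM in the Sox2-labelled libraries and at 213 and 118 FPKM in control-labelled ones. Nedd4l passed as higher under each of the 3 rescalings, and 0 genes passed as lower under any alternative. The glucocorticoid-induced Tsc22d3 had a log2 difference of 0.90, or 1.57 without control-labelled replicate 2.

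Of 8 proteases and protease inhibitors that act on ENaC, all were tested, 1 was higher, 1 was lower and 6 did not pass. Under each of the 3 rescalings 3 were higher and 0 lower, with the membrane proteases Tmprss2 and Tmprss4 added. Prss8, the membrane protease prostasin that cuts the gamma subunit, stood at 63.2 and 65.1 FPKM in the Sox2-labelled libraries and at 34.0 and 26.1 FPKM in control-labelled ones (log2 difference 1.08, SE 0.31, limma adjusted p = 0.0459). St14, the membrane protease matriptase, stood at 31.4 and 29.8 FPKM in the Sox2-labelled libraries and at 60.1 and 72.8 FPKM in control-labelled ones (log2 difference -1.09, SE 0.31, limma adjusted p = 0.0423). Both calls are marginal. They were lost without Sox2-labelled replicate 1, Sox2-labelled replicate 2 or control-labelled replicate 2. That of St14 was lost under all 3 rescalings too. Spint2, an inhibitor of these proteases and the most abundant of the list, stood at 269 and 272 FPKM in the Sox2-labelled libraries and at 301 and 464 FPKM in control-labelled ones (limma adjusted p = 0.389).

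**Figure D4:**
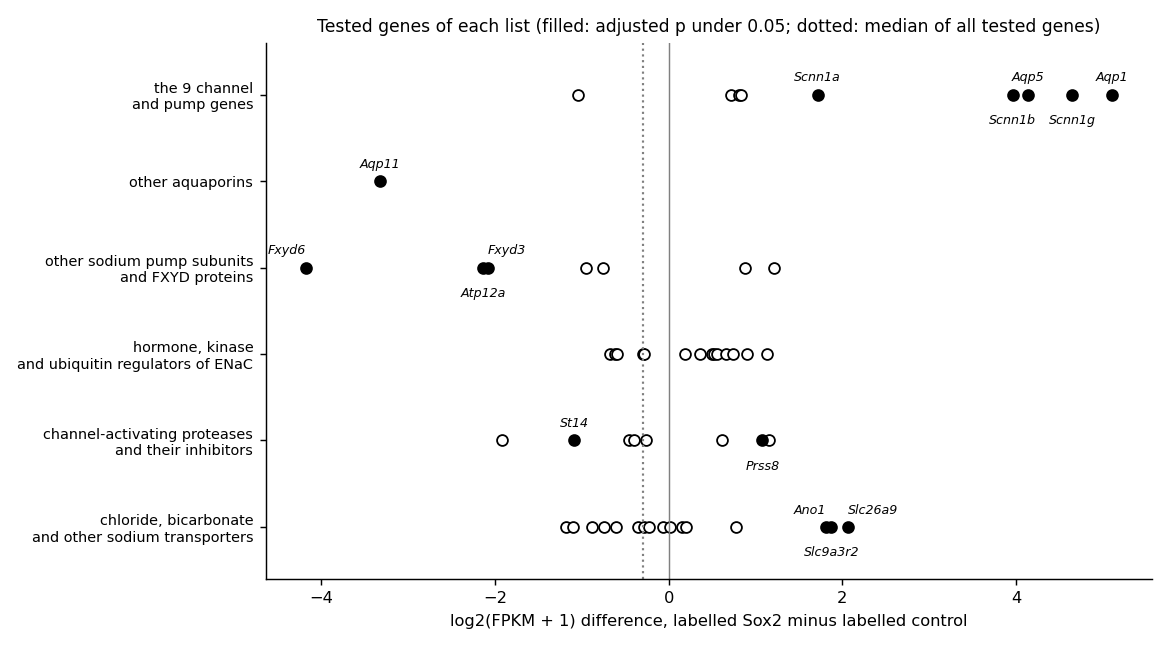
Difference in log2(FPKM + 1), labelled Sox2 minus labelled control, of every tested gene of each list, filled where the adjusted p is under 0.05. The 9 genes reach 5.11 upward, Aqp11 and Fxyd6 stand at -3.33 and -4.17, and the regulators of ENaC hold no filled point.

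Levels of the 9 genes fell in a different order in the 2 groups. In the Sox2-labelled libraries the order was Aqp5, Aqp1, Scnn1g, Scnn1a, Atp1b1, Scnn1b, Cftr, Aqp4 and Aqp3, and neighbours overlapped only for Scnn1a with Atp1b1 and for Aqp4 with Aqp3. Among control-labelled libraries Atp1b1 came first, followed by Scnn1a and Aqp5, which overlapped, and then by Aqp1, Scnn1g, Aqp3, Cftr and Scnn1b, of which neighbours overlapped, with Aqp4 last and below all of these. The 9 genes summed to 1390.5 and 1841 FPKM in the Sox2-labelled libraries and to 188 and 155 FPKM in control-labelled ones.

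Markers of several epithelial cell types also differed between the labels, some upward and some downward, and their part in the differences was not tested. The 13 AT1 markers summed to 7806 and 8732 FPKM in the Sox2-labelled libraries and to 1694 and 835 FPKM in control-labelled ones, 6.54-fold, and 11 of 13 rose. The AT1 fold was 9.90 without control-labelled replicate 1 and 4.88 without control-labelled replicate 2. It was 6.91 and 6.17 without Sox2-labelled replicate 1 and 2. The 10 AT2 markers summed to 26104 and 18133 FPKM in the Sox2-labelled libraries and to 6165 and 1009 FPKM in control-labelled ones, 6.17-fold, and all 10 passed as higher. The AT2 fold was 21.9 without control-labelled replicate 1 and 3.59 without control-labelled replicate 2, and 3 and 2 of the 10 calls held without Sox2-labelled replicate 1 and 2. The 7 club cell markers were 2.39-fold, or 1.82-fold without Sox2-labelled replicate 2. Of 5 tested, 2 were higher, 0 were lower and 3 did not pass, and 4 of the 5 differences were above 0. Scgb1a1, the main club cell secretion, did not pass (limma adjusted p = 0.0629). It stood at 3263 and 5594 FPKM in the Sox2-labelled libraries and at 1796 and 1730 FPKM in control-labelled ones. Goblet cell markers were near 0 in the Sox2-labelled libraries, at sums of 0.717 and 1.35 FPKM, against 5.95 and 19.2 FPKM in control-labelled ones. Muc5ac was the most abundant of the 6, at 3.61 and 14.5 FPKM in control-labelled libraries, and only 2 were tested, both lower. The fold of the goblet sum was 0.0819, or 0.174 without control-labelled replicate 2. Spdef, too low to be tested, went the other way. It stood at 0.309 and 0.513 FPKM in the Sox2-labelled libraries and at 0.155 and 0.255 FPKM in control-labelled ones. Set against Ager in the same library, Aqp1 was 0.125 and 0.133 in the Sox2-labelled libraries and 0.0415 and 0.0442 in control-labelled ones, while Scnn1a was 0.0333 and 0.0390 against 0.0745 and 0.244. Scnn1g was 0.0521 and 0.0453 in the Sox2-labelled libraries against 0.0276 and 0.0139, and Scnn1b was 0.0208 and 0.0164 against 0.0128 and 0.00895. Thus Aqp1, Scnn1g and Scnn1b differed by more than Ager did and Scnn1a by less. The ratio of Aqp5 to Ager overlapped between the labels, at 0.155 and 0.229 in the Sox2-labelled libraries and 0.0816 and 0.208 in control-labelled ones.

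**Figure D5:**
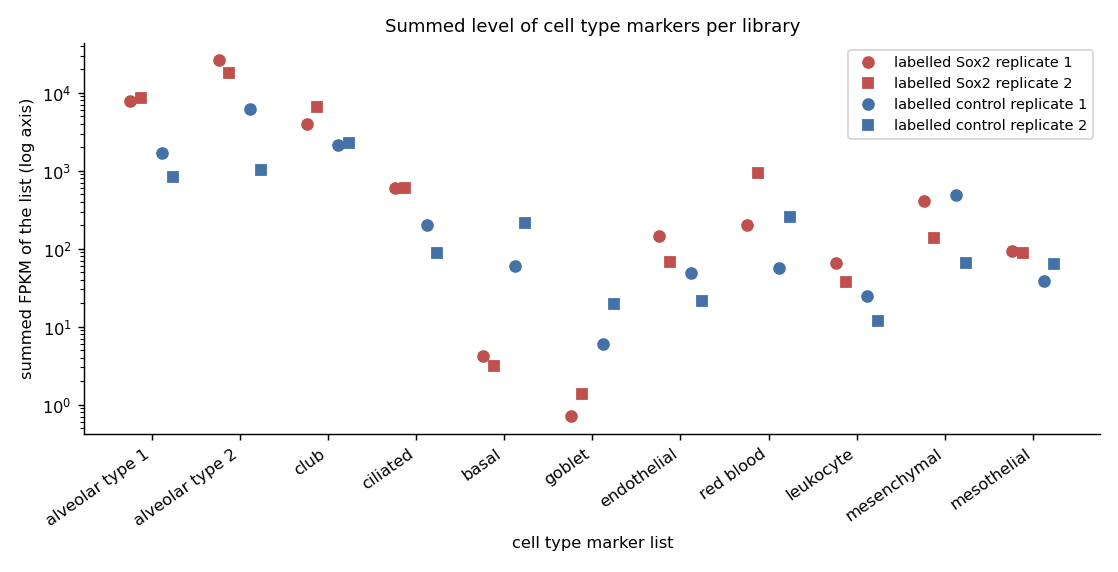
Summed FPKM of the markers of 11 cell types (log axis) in the Sox2-labelled libraries (red, left) and control-labelled ones (blue, right), with circles for replicate 1 and squares for replicate 2. AT1 and AT2 sums are higher in the Sox2-labelled libraries, basal and goblet sums lower, and endothelial sums 3.06-fold higher.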

How the data were processed

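Per the file headers, the authors deposited an FPKM and its 2 bounds for each gene in each library. TopHat2, Bowtie2, Cufflinks and Cuffdiff with build mm10 are named in the submitters' processing notes; the sources used here do not state versions, annotation or strand setting. The tables used hold FPKM and no counts. If the bounds are read as counting error, 70.2% to 73.2% of low values per library came out within 0.1 of a whole fragment, so counts were not rebuilt and depth is unknown. For genes of at least 1 FPKM the median distance from value to bound was 7.82% to 12.4% per library. A table of 2 group columns that no label ties to a group was not used.

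The 24490 entries per library were joined, entries of 1 symbol were added (267 genes), and 1 gene marked as failed was left out. Genes averaging 1 FPKM or more were tested on log2(FPKM + 1) with limma 3.58.1 in R 4.3.3 (lmFit, eBayes with trend), two-sided, adjusted by Benjamini-Hochberg across every tested gene, with a threshold of 0.05 and 2 residual degrees of freedom. This scale understates changes of low genes. The procedure was tested on simulated data, with changes planted only in genes of higher level and the largest spreads capped. That test therefore does not cover calls on low or highly variable genes. Folds are ratios of group mean FPKM. Groups come from the titles.

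The members, gene lists and tests were chosen with earlier results of these data known. Named genes are the 9 members, the genes past the threshold and the most abundant gene of each pathway list, set marker genes and, for each member, the 2 genes with the most similar values; a few of these are not reported here. Markers are listed as sums; Adgre1 of the leukocyte list is not used here. Alternatives were a pseudocount of 0.1, no filter or a filter at a mean of 5 FPKM, 3 rescalings, 2 variance models, a replicate block and each library left out. Sums of marker lists with each library left out were chosen after seeing the data. With 1 library left in a group, it is assumed to vary like the others. The fit then holds no spread for that group, and a call gained in it is not taken as a result. Promoters are RefSeq entries of GRCm38.p6, the build of mm10.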

Additional observations from a re-analysis of the deposited data

How the results depend on the processing

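Over 115 values of the 9 genes under the alternatives, 103 kept their direction and side of the threshold, 6 lost it, 6 gained it and none reversed. The number called higher was 4 to 6 with 1 library left out and 0 with no filter, and the number called lower 0 to 1 with 1 library left out. Over all genes, calls were 119 to 837 higher and 115 to 1312 lower with 1 library left out, and 0 higher and 3 lower with no filter. Upward calls numbered 964 after median-of-ratios rescaling, 980 after quantile normalization and 854 after rescaling without small RNA genes. The cause of these shifts was not tested. With the replicate block limma called 1142 higher and 2730 lower genes and 6 of the 9 higher, Atp1b1 being the addition (limma adjusted p = 0.0371). Of the further sodium pump and FXYD genes, 2 were then called higher, Fxyd1 and Fxyd5, and 4 lower. Nothing in the labels pairs the libraries by number, and with 2 per group the deviations of same-numbered libraries correlate at 0.234 across genes by construction for both pairs. For the 12040 tested genes, precision is limited by n = 2 per group, and for Aqp3 and Aqp4 also by their low level.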

Other observations

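The 9 genes were not compared with each other here, and RIKEN, Gm, Mir and Snor symbols were left out. Among the other tested genes, those whose 4 values, centred on log2(FPKM + 1), lay closest to each of the 9 give further detail. Distances are Euclidean over 4 libraries that share both labels, so they describe and test nothing. Scnn1g lay closest to Cldn18, a tight junction gene of alveolar cells, at a distance of 0.111. Cldn18 stood at 969 and 889 FPKM in the Sox2-labelled libraries and at 83.1 and 17.2 FPKM in control-labelled ones. Next to Scnn1g came Thbs3 (0.270). Aqp1 lay closest to the proteoglycan Spock2 (0.271) and the basement membrane collagen Col4a3 (0.381), and Scnn1b to the collagen receptor Mrc2 (0.198) and the transglutaminase Tgm2 (0.283). The nearest gene to Aqp5 was farther away, Wnt3a at 0.392. Wnt3a stood at 13.8 and 19.2 FPKM in the Sox2-labelled libraries and at 0.296 and 0.142 FPKM in control-labelled ones. Scnn1a, whose level was more even, lay closest to the low genes Tmem91 (0.106) and Lrtm2 (0.171). Tmem91 stood at 2.64 and 3.67 FPKM against 0.140 and 0.229 FPKM. Adding 1 FPKM shrinks the differences of low genes, so a small distance to them does not mean an equal fold.

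The genes that did not pass had close neighbours at low spread. Cftr lay closest to Rai14 (0.135) and Hmcn1 (0.158), both lowest in control replicate 2. Hmcn1 stood at 4.90 and 4.29 FPKM in the Sox2-labelled libraries and at 4.15 and 0.623 FPKM in control-labelled ones. Aqp3 lay closest to Slc25a35 (0.0733) and Shisa3 (0.0743), both highest in control replicate 2, Aqp4 to Mterfd2 (0.0566) and Pmepa1 (0.0678), and Atp1b1 to Cdyl2 (0.0784) and Tecpr1 (0.0833).

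Beside the remaining marker lists, leukocyte markers summed 2.87-fold and mesothelial markers 1.79-fold as high in the Sox2-labelled libraries as in control-labelled ones. Ciliated cell markers summed 4.09-fold as high, which rests on Sec14l3 and Tppp3, while 5 of 7 tested did not pass and the median log2 difference was 0.33. Mesenchymal markers summed to 408 and 136 FPKM in the Sox2-labelled libraries and to 487 and 65.6 FPKM in control-labelled ones. Their fold was 4.15 without control-labelled replicate 1 and 0.559 without control-labelled replicate 2, and 6 of 8 differences were above 0 with a median log2 difference of 1.14, none of which passed. Of the 8 genes often used as references, 4 were lower in the Sox2-labelled libraries, 0 were higher and 4 did not pass.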
